A study of Mus musculus with 12 samples.

Results

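The genes described here are the transferases of the UGT1A, UGT2A, UGT2B and UGT3A, GST alpha, mu, pi, theta and omega, and SULT1 families in mouse kidney. They were chosen by name, as the rows of the deposited count table that begin with Ugt1a, Ugt2a, Ugt2b, Ugt3a, Sult1, or with Gsta, Gstm, Gstp, Gstt or Gsto and a digit, and 3 names marked as pseudogenes were dropped. This gave 46 of 46882 gene names: 21 UDP-glycosyltransferases, 19 glutathione transferases and 6 sulfotransferases. RNA was extracted from the whole kidney of C57BL/6 mice that were 6 to 8 weeks old. The wild-type group (WT) had 6 animals, numbered 573, 590, 601, 776, 777 and 778, and the A1cf -/- group (A1cf KO) had 6, numbered 574, 584, 588, 591, 602 and 780. A1cf encodes an RNA-binding cofactor of the enzyme that edits apolipoprotein B mRNA. The labels give no treatment and no sex, and do not say which part of A1cf was deleted. Each library is 1 animal, so the spread given below is between animals.

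These enzymes make up the conjugation step of detoxification. UDP-glucuronosyltransferases sit in the endoplasmic reticulum and add glucuronic acid from UDP-glucuronate to bilirubin, steroids, bile acids and drugs; glutathione transferases add glutathione to electrophiles such as products of lipid peroxidation; cytosolic sulfotransferases add sulfate from the donor PAPS to phenols, catecholamines, thyroid hormones and oestrogens. The proximal tubule of the kidney is a main site of all of these reactions outside the liver, and it secretes the conjugates into urine.

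The libraries held 26671705 to 52899139 counted reads. A1cf, the targeted gene, had 54.5 ± 7.39 CPM (counts scaled to a common library size; SD, n = 6) in WT and 4.11 ± 1.07 in A1cf KO, which is 7.54% of WT, and the genotypes did not overlap. Markers of the kidney were present: the summed CPM of 12 proximal tubule markers, Kap and Acsm2 the highest, was 39933 to 55266 in WT and 42352 to 60342 in A1cf KO. None of the 12 passed an adjusted p of 0.05 in edgeR, 8 had positive fold changes (A1cf KO relative to WT, median log2 0.17), 3 of them at an unadjusted p under 0.05 beside 1 of the negative ones, and DESeq2 called 1, Cyp2e1. None of 8 loop of Henle markers passed in edgeR either. But all 8, with Umod the highest, had negative fold changes at an unadjusted p under 0.05 (median log2 -0.42). Over all genes tested, 5.28% had a lower mean in A1cf KO at that level. DESeq2 called 4 of the 8, beside 1.11% of the genes it tested. The genotypes did not overlap for 2, Umod and Cldn16, beside 0.84% of all genes tested. Sums of the 8 were 4971.7 to 7261.4 CPM in WT and 3773.7 to 4784.3 in A1cf KO. The 5 markers of the distal convoluted tubule (median -0.27) and the 8 tested of the collecting duct (median -0.25) were all negative as well, none past the test in edgeR or DESeq2. In RNA of a whole kidney, fewer cells of a type and less RNA per cell cannot be told apart, and the part that such differences play in the values below was not tested. The 12 hepatocyte markers, Serpina1a and Fga the highest, had sums of 125.0 to 219.5 CPM in WT and 93.98 to 185.3 in A1cf KO. The median log2 fold change of the 9 tested was -0.31, with 1 called by DESeq2 and 0 of 9 by edgeR. Cps1 had 0 reads in all WT libraries, and its 10 reads were all in A1cf KO 584. That library also held 24 of 26 reads of Cyp2c29 and 158 of 198 of Cyp3a11. It had the highest Apoa1 value, 6.45 CPM beside a WT maximum of 2.12, and a sum of the list of 104.6 CPM. The part of this in the values below was not tested. Of 7 adrenal markers Cyp11b2 and Nr5a1 had 0 reads in all 12 libraries, and Star, the highest, had reads in each, with sums of the list of 3.26 to 5.32 CPM in WT and 3.21 to 4.16 in A1cf KO. The animal numbers fall into a series of 573 to 602, with 3 WT and 5 A1cf KO, and a series of 776 to 780, with 3 WT and 1 A1cf KO; the labels do not say what the numbering stands for.

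The kidneys used a small number of these genes at high level. Levels of different genes are compared as CPM per kilobase of exon sequence that a gene shares with no other gene (RPKM of own sequence), because reads over exons of more than 1 gene were not counted. On that scale Ugt3a2 was the highest, at 458 ± 31.7 RPKM in WT (SD, n = 6), followed by Gstm1 at 381 ± 39.2, Ugt2b38 at 327 ± 46.7, Gstt2 at 296 ± 32.2 and Sult1d1 at 230 ± 18.8. The WT ranges of neighbours in this order overlapped, except those of Gstt2 and Sult1d1. Gsta2, Gstp1, Ugt1a7c and Gstm5 followed, with means over all 12 libraries of 146, 136, 123 and 114 RPKM. The scale does not correct for sequence that recurs in another gene, from which reads can be lost or traded. Of coding windows of 50 bases, 14.1% in Ugt3a2, 37.5% in Gstm1 and 44.0% in Ugt2b38 recur unchanged in another gene. In Gsta2 and Gstp1 75.3% and 71.1% do, and in Gstt2, Sult1d1 and Gstm5 none do. The limit for Ugt1a7c is given with its locus below. The order of these genes is therefore that of the counts, and may not be that of the true levels. Each of the 5 subfamilies of glutathione transferase had a member above 10 RPKM, led by Gstm1, Gstt2, Gsta2, Gstp1 and Gsto1 (19.8 RPKM). All 46 genes together took 5122 ± 184 CPM in WT and 5335 ± 233 in A1cf KO (SD, n = 6), with ranges that overlap.

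**Figure D1:**
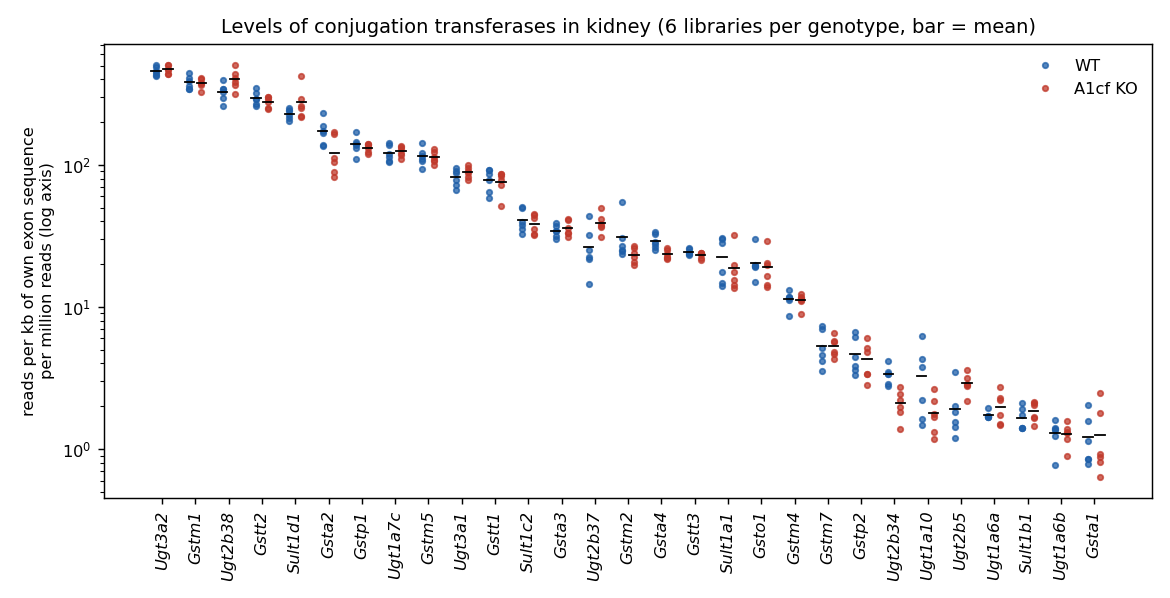
Level of each tested transferase at 1 RPKM of own sequence or more (log axis), genes ordered by their mean, with 6 WT (blue) and 6 A1cf KO (red) libraries and a black bar at each group's mean. Ugt3a2, Gstm1 and Ugt2b38 stand at the top, and the genotypes overlap at all genes shown but Ugt2b34.

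Of the 46 genes, 36 had enough reads to be tested for a genotype difference, and none passed an adjusted p of 0.05 in edgeR's quasi-likelihood test, against 8 of 16910 genes tested in all (0.0473%). An unadjusted p under 0.05 was found for 9 of 36 (25.0%), against 10.4% of all genes tested. Of these, 4 had the higher mean in A1cf KO (5.07% of all genes tested) and 5 the lower (5.28%), and the 9 include close relatives that share sequence and a chromosomal cluster. DESeq2 called 1, Ugt2b34, where it called 1.11% of the genes it tested. The genotypes did not overlap in CPM for 1 of 36, again Ugt2b34, against 0.84% of all genes tested. Fold changes were positive for 14 genes (38.9%, beside 49.2% of all genes tested) and negative for 22. Their median was a log2 of -0.03, beside -0.003 over all genes, and the median size without regard to sign was 0.13, beside 0.10 over all genes. The transferases also varied more between WT animals, with a median coefficient of variation of 19.5%, beside 13.99% over all genes tested.

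**Figure D2:**
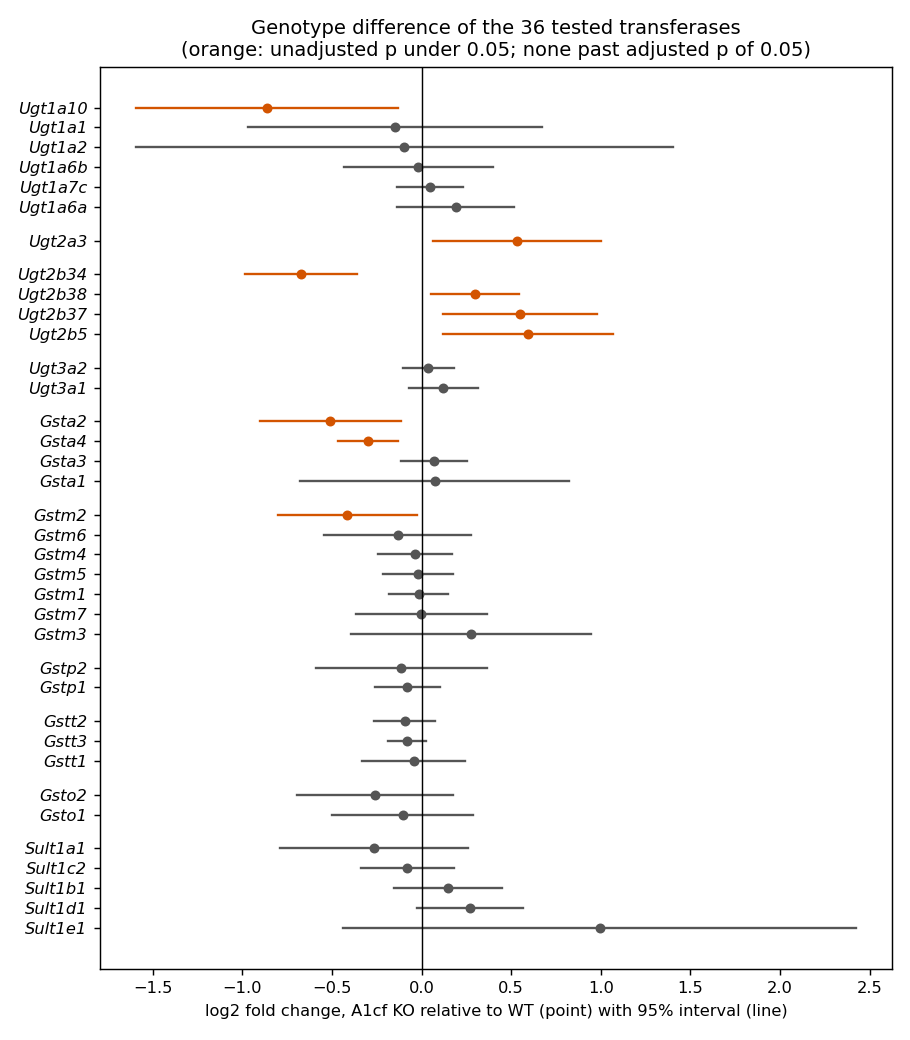
Log2 fold change of A1cf KO relative to WT for the 36 tested transferases, grouped by family (points), with 95% intervals (lines). Orange marks the 9 genes with an unadjusted p under 0.05, of which Ugt2b5, Ugt2b37, Ugt2b38 and Ugt2a3 lie above 0 and Ugt2b34, Ugt1a10, Gsta2, Gsta4 and Gstm2 below it.

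The UGT2B enzymes, which glucuronidate steroids, bile acids and drugs, held Ugt2b34, the gene with the smallest p of the 36. All 4 tested members had an unadjusted p under 0.05, beside 10.4% of all genes tested. They did not go the same way: the means of Ugt2b38, Ugt2b37 and Ugt2b5 were higher in A1cf KO and that of Ugt2b34 was lower. The first 60 coding bases are shown to make plain how these genes are related, read from the GENCODE transcripts, with capitals at each position that differs from Ugt2b38.
Ugt2b38: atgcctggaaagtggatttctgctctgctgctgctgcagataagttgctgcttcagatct
Ugt2b37: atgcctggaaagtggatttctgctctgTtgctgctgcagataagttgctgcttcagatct
Ugt2b5: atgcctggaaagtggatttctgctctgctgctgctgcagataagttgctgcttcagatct
Ugt2b34: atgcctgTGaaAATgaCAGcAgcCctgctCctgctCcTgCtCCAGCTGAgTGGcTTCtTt
In this stretch Ugt2b5 is identical to Ugt2b38, Ugt2b37 differs at 1 position and Ugt2b34 at 29. Over the whole coding sequence Ugt2b38 and Ugt2b5 are 97.05% identical, Ugt2b37 is 94.1% identical to Ugt2b38, and Ugt2b34 is 72.07% identical to Ugt2b38. Of all windows of 50 bases in the coding sequence, 44.0% in Ugt2b38, 48.8% in Ugt2b5 and 21.4% in Ugt2b37 occur unchanged in another gene, so that reads of these 3 genes can be lost or traded between them. Only 4.0% of the windows of Ugt2b34 do.

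Ugt2b34 lies at chr5:86889767-86906937 (mm10, minus strand). It had 11.97, 14.6 and 18.1 CPM as the lowest, median and highest WT values and 5.96, 9.06 and 11.8 in A1cf KO. Every A1cf KO animal lay below every WT animal, though the highest A1cf KO value and the lowest WT value are close. The log2 fold change was -0.67 (SE 0.15, 95% interval -0.99 to -0.36), with an adjusted p of 0.147 in edgeR's quasi-likelihood test. DESeq2 gave the same fold change and an adjusted p of 0.0034. The call thus rests on the choice of test and of model. With the animal number series as a covariate in edgeR the log2 fold change was -0.82 and the adjusted p 0.0123; within animals 573 to 602 alone the difference was -0.72 with an adjusted p of 0.226.

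Ugt2b38, by far the most abundant gene of the family, had 488, 633 and 748 CPM in WT as lowest, median and highest, and 593, 745 and 959 in A1cf KO. The groups overlapped, and 5 of 6 A1cf KO animals were above the WT median. Its log2 fold change was 0.30 (SE 0.12, adjusted p 0.395). Ugt2b37 had 27.5, 45.1 and 83.1 CPM in WT and 59.0, 71.4 and 94.4 in A1cf KO, a log2 fold change of 0.55 (SE 0.20, adjusted p 0.375). Ugt2b5 had 2.21, 3.14 and 6.48 CPM in WT and 4.06, 5.30 and 6.72 in A1cf KO, a log2 fold change of 0.59 (SE 0.22, adjusted p 0.378). For both, all 6 A1cf KO animals were above the WT median and WT 573 was the only WT animal above most of them. WT 573 held the highest WT value of all 4 tested UGT2B genes, and A1cf KO 602 the highest A1cf KO value of Ugt2b38, Ugt2b37 and Ugt2b5. Without WT 573 the log2 fold changes were 0.75 for Ugt2b37 and 0.85 for Ugt2b5, with adjusted p of 0.158 and 0.105 in edgeR. These were the highest values as single libraries were left out. The lowest, without WT 776, were 0.43 for Ugt2b37 and 0.495 for Ugt2b5. Within animals 573 to 602 the log2 fold change of Ugt2b38 was 0.15.

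**Figure D3:**
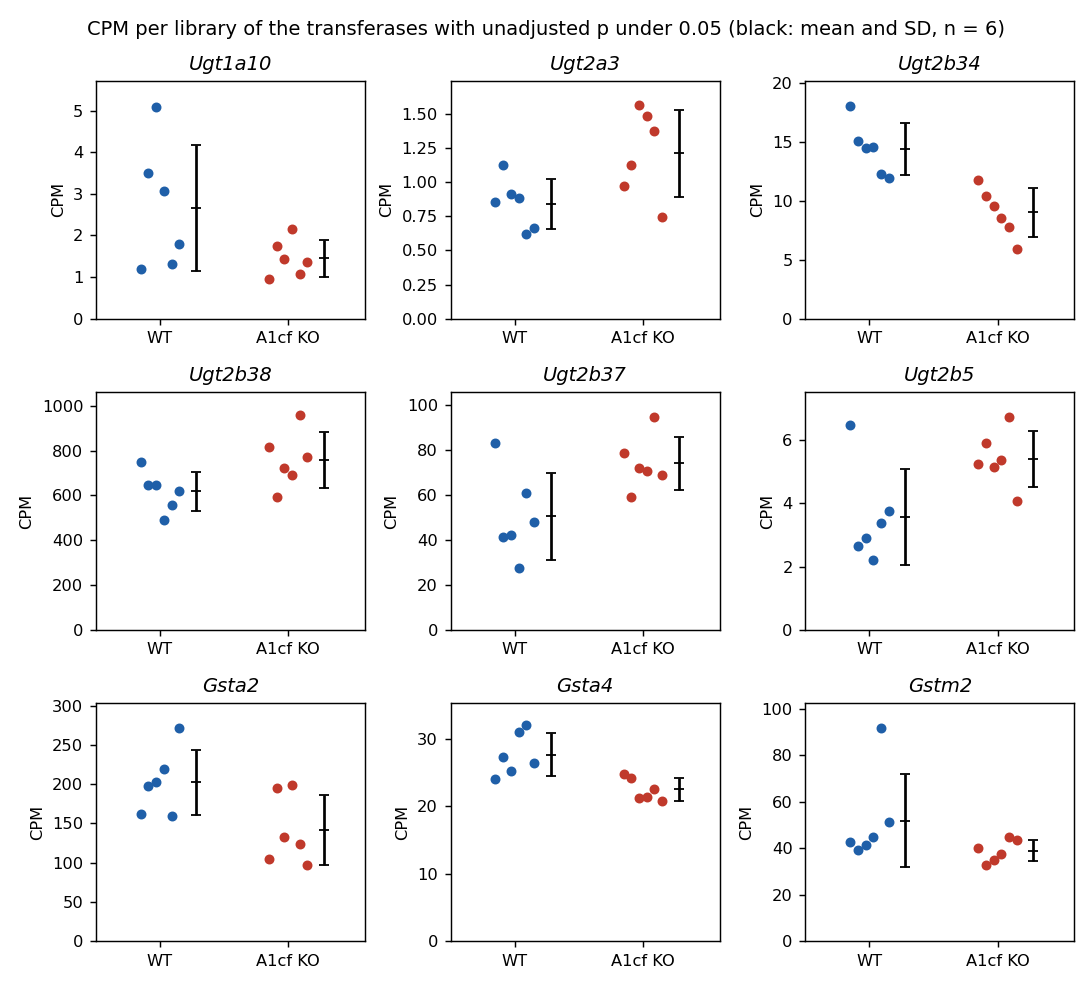
CPM in each library (points; blue WT, red A1cf KO) of the 9 transferases with an unadjusted p under 0.05, on linear axes that start at 0, with each group's mean and SD (n = 6) in black. The groups are apart only in the panel of Ugt2b34; in those of Ugt2b37 and Ugt2b5 the highest WT point is WT 573, and in that of Gstm2 it is WT 777 at 91.9 CPM.

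Sequence upstream of these genes divides them the same way as the coding sequence. The 120 bases before the RefSeq start are shown, 5′ to 3′ on the minus strand (GRCm38.p6), to show how alike these genes are there. Capitals mark the longest run of letters, 62 bases, that Ugt2b38, Ugt2b37 and Ugt2b5 have in common.
Ugt2b38: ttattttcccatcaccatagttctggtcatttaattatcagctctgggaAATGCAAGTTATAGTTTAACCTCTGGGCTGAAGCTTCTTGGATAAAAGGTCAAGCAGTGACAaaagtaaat
Ugt2b37: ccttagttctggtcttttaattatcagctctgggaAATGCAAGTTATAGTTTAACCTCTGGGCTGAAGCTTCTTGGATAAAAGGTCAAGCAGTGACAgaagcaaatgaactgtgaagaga
Ugt2b5: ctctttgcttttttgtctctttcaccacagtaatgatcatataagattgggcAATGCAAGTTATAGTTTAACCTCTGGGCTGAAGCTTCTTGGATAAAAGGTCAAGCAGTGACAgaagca
Ugt2b34: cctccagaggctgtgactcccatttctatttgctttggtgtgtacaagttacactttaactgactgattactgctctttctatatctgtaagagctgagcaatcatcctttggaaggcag
They lie at chr5:87424204-87424323, chr5:87254789-87254908, chr5:87140341-87140460 and chr5:86906938-86907057. Searched for exact copies on the strand of the gene, the run occurs in 3 of 32851 promoters in the RefSeq table. These are the 3 genes it was taken from, and the promoter of Ugt2b34 does not hold it. A similar stretch with some letters changed lies before the start of Ugt2b36, which had 14 reads in all and was not tested for a genotype difference. The 62-base run starts 71, 85 and 68 bases before the start of Ugt2b38, Ugt2b37 and Ugt2b5. Whether upstream sequence has a part in the fold changes was not tested.

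The UGT2 genes form 1 cluster on chromosome 5 with Sult1b1, Sult1d1 and Sult1e1. Of its 13 members, 8 were tested. Ugt2b34, at the outer end, had a negative fold change, and the 7 others, which begin 235.2 kb away, had positive ones from 0.15 for Sult1b1 to 0.99 for Sult1e1. Among them Ugt2a3, a UGT2A enzyme with a low level in kidney, had 0.62, 0.87 and 1.12 CPM in WT as lowest, median and highest and 0.74, 1.25 and 1.56 in A1cf KO. The groups overlapped, and 5 of 6 A1cf KO animals were above the WT median; its log2 fold change was 0.53 (SE 0.22, adjusted p 0.42), and 0.345 with the series as a covariate. None of the 8 passed an adjusted p of 0.05 in edgeR.

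**Figure D4:**
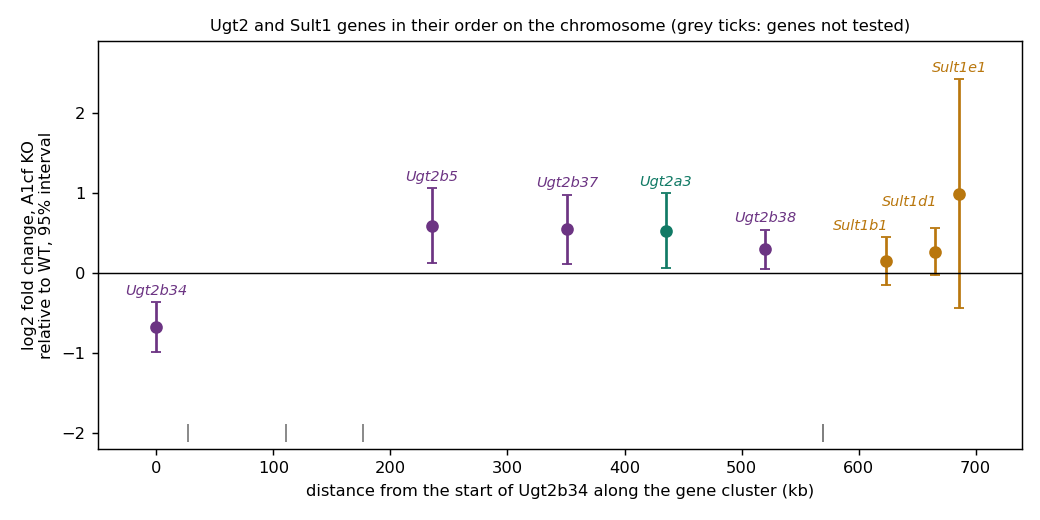
Log2 fold change of A1cf KO relative to WT with its 95% interval for the 8 tested genes of the UGT2 and SULT1 cluster, against distance in kb from the start of Ugt2b34 (colours by family; grey ticks at the bottom are genes not tested). Ugt2b34 lies at -0.67 and the points of the 7 others lie above 0, with the widest interval for Sult1e1. The intervals of Sult1b1, Sult1d1 and Sult1e1 include 0.

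The UGT1A genes of mouse are first exons of 1 locus, each spliced to the same 4 exons that encode the part of the enzyme that binds UDP-glucuronate. The junctions of 4 of them are shown because they show what the counts can and cannot see. The last 36 bases of the first exon are in lower case and the first 36 bases of exon 2 (chr1:88215044-88215175, mm10) in capitals.
Ugt1a1: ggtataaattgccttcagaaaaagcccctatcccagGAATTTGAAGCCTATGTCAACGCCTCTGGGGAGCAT
Ugt1a10: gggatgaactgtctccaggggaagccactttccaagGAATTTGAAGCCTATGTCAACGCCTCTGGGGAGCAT
Ugt1a6a: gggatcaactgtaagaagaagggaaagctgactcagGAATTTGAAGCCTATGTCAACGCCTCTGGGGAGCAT
Ugt1a7c: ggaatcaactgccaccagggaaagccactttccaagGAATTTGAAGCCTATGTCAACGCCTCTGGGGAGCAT
The capitals are the same in all 9 genes. Reads over exons of more than 1 gene were left out of the counts, so what remains for most of these genes is the first exon alone: 809 bases for Ugt1a10 and 900 for Ugt1a2, but 385 for Ugt1a1, the bilirubin enzyme.

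The highest count of the locus carries this limit. Ugt1a7c had 199, 224 and 275 CPM as the lowest, median and highest WT values and 212, 240 and 261 in A1cf KO. The ranges lie on top of each other, with a log2 fold change of 0.05 (SE 0.09, 95% interval -0.14 to 0.23). But of its 1915 own bases only 917 are its first exon; the other 998, at chr1:88219005-88220002, are the end of the last exon, which in the annotation used reaches beyond that of the other 8 genes. Reads there could come from any transcript of the locus that ends so far out, and the count cannot divide them. Ugt1a6a, the enzyme for small planar phenols, keeps 2142 own bases. Of these, 1920 are intron sequence between the shared exons, within chr1:88215176-88217403. A further 127 lie in a separate exon upstream and 95 in its first exon. The annotation also gives 859 bases of that first exon to Ugt1a7c. Reads in the intron sequence could come from unspliced RNA of any gene of the locus, and the count cannot divide them. The count of Ugt1a6a was 3.58, 3.65 and 4.20 CPM in WT and 3.15, 4.23 and 5.82 in A1cf KO, a log2 fold change of 0.19 (SE 0.15).

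Among first exons counted on their own, Ugt1a10 had the largest difference. It had 1.203, 2.42 and 5.08 CPM in WT and 0.95, 1.40 and 2.15 in A1cf KO. No A1cf KO animal was above the WT median, yet 3 of the WT animals (573, 777 and 778) lay within the A1cf KO range. The log2 fold change was -0.86 (SE 0.34, 95% interval -1.59 to -0.13, adjusted p 0.407), and it was -0.57 without WT 601. Ugt1a6b, a near copy of Ugt1a6a with 98.37% identical coding sequence, had 1.21 ± 0.26 CPM in WT and 1.195 ± 0.21 in A1cf KO (SD, n = 6), a fold change whose sign turned with the series as a covariate. Ugt1a1 and Ugt1a2 had a mean of 0.40 and 0.70 CPM in WT and intervals of the log2 fold change from -0.97 to 0.67 and from -1.59 to 1.40, so these reads could not show a change of 1.5-fold in either.

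The UGT3A enzymes were abundant, and neither differed between genotypes beyond the spread. The human enzymes of this family use other sugars than glucuronic acid. Ugt3a2 had 1310, 1403 and 1564 CPM as the lowest, median and highest WT values and 1343, 1456 and 1574 in A1cf KO. The groups overlapped almost wholly, and its log2 fold change of 0.04 had a 95% interval of -0.11 to 0.18. Ugt3a1 had 218 ± 30.2 CPM in WT and 238 ± 20.1 in A1cf KO (SD, n = 6), a log2 fold change of 0.12 with an interval of -0.07 to 0.31. These genes are 93.26% identical in coding sequence, and 14.1% of the 50-base windows of Ugt3a2 are shared, with Ugt3a1 and a predicted gene.

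In the alpha class of glutathione transferases, 2 of 4 genes had an unadjusted p under 0.05, beside 10.4% of all genes tested. In both the A1cf KO mean was the lower. Gsta4 conjugates hydroxynonenal and related aldehydes from lipid peroxidation. It had 24.1, 26.9 and 32.1 CPM in WT and 20.7, 22.0 and 24.8 in A1cf KO. All 6 A1cf KO animals lay below the WT median and 4 of 6 below the lowest WT animal; the log2 fold change was -0.30 (SE 0.08, 95% interval -0.47 to -0.13). Its adjusted p was 0.230 in edgeR and 0.0552 in DESeq2, and within animals 573 to 602 the fold change was -0.16. No 50-base window of Gsta4 is shared with another gene.

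Gsta2, the most abundant alpha class gene, had 159, 200.1 and 272 CPM in WT and 97.2, 128 and 199 in A1cf KO. All 6 A1cf KO animals lay below the WT median, with A1cf KO 584 and 591 at 195 and 199 CPM among the WT animals. The log2 fold change was -0.51 (SE 0.18, adjusted p 0.375), and -0.31 within animals 573 to 602. Gsta2 shares 75.3% of its 50-base windows, with Gsta1, to which it is 97.47% identical, and with predicted genes. Gsta1 itself had 1.16 ± 0.48 CPM in WT and 1.197 ± 0.69 in A1cf KO (SD, n = 6), and its fold change had either sign as single animals were left out. Gsta3, which in the mouse conjugates the epoxide of aflatoxin, shares no window and had 149 ± 14.2 CPM in WT and 156 ± 19.7 in A1cf KO, a log2 fold change of 0.07 with a 95% interval of -0.11 to 0.25.

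In the mu class the main gene did not differ beyond the spread. Gstm1 had 503, 553 and 648 CPM in WT as lowest, median and highest and 480, 554 and 607 in A1cf KO, a log2 fold change of -0.02 with a 95% interval of -0.18 to 0.15. Gstm5 had 126 ± 17.8 CPM in WT and 125 ± 11.98 in A1cf KO, and Gstm4 had 19.5 ± 2.56 and 19.0 ± 2.03 (SD, n = 6). Gstm2 had 39.4, 43.6 and 91.9 CPM in WT and 32.9, 38.9 and 44.8 in A1cf KO. Its log2 fold change was -0.41 (SE 0.18, adjusted p 0.449). The WT maximum is WT 777 alone, and the next WT animal had 51.3 CPM. Without WT 777 the log2 fold change was -0.17, with the series as a covariate it was -0.23, and within animals 573 to 602 it was -0.11. The same library had the highest summed level of 5 urothelium markers, 56.6 CPM where the other 11 libraries had 1.76 to 17.2, the highest loop of Henle sum, 7261.4 CPM, and 240.4 CPM of Akr1b3, aldose reductase, where the WT median was 45.6 (Akr1b3 was named after its values were seen). Their part in the value of Gstm2 was not tested. Gstm7, Gstm6 and Gstm3 had WT means of 8.46, 2.03 and 0.42 CPM and log2 fold changes of -0.002, -0.13 and 0.28, each with an interval that includes 0. Of the 50-base windows, 37.5% of Gstm1, 15.6% of Gstm2, 59.0% of Gstm3 and 20.0% of Gstm6 are shared with another gene. Gstm4, Gstm5 and Gstm7 share none.

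The pi, theta and omega classes had 7 tested genes, none with an unadjusted p under 0.05, and all 7 fold changes were negative. Of these signs, 4 (Gstp2, Gstt1, Gsto1 and Gsto2) turned under at least 1 other setting. Gstp1 had 83.1, 106 and 128 CPM in WT and 90.2, 102 and 106 in A1cf KO, a log2 fold change of -0.08 (95% interval -0.26 to 0.10). Its neighbour Gstp2, 98.1% identical in coding sequence, had 3.58 ± 1.07 CPM in WT and 3.29 ± 0.99 in A1cf KO (SD, n = 6). More than 70% of the 50-base windows of both recur elsewhere (71.1% and 81.7%). Their counts are therefore the least certain of these classes beside Gstt3 (70.3%, shared with a predicted gene). That predicted gene has 0 own bases, so its 0 reads say nothing of its level. Gstt2, a theta enzyme that acts on sulfate esters, had 357, 400.0 and 475 CPM in WT and 338, 389 and 412 in A1cf KO, a log2 fold change of -0.09 (-0.26 to 0.07). Gstt1 and Gstt3 had log2 fold changes of -0.04 and -0.08. For Gstt3 the animals were close together, 51.6 ± 2.37 CPM in WT and 48.8 ± 2.36 in A1cf KO, and the interval of -0.18 to 0.03 is the narrowest of all the transferases. The omega enzymes, which reduce dehydroascorbate, had 40.3 ± 10.1 and 37.5 ± 11.3 CPM for Gsto1 and 1.01 ± 0.26 and 0.84 ± 0.14 for Gsto2. The log2 fold change of Gsto1 was -0.11, and 0.04 without WT 776, the highest WT animal.

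Among the sulfotransferases, Sult1d1, which sulfates dopamine and other catecholamines in rodents, was the most abundant. It had 504, 570 and 621 CPM in WT and 536, 626 and 1040.4 in A1cf KO. The A1cf KO maximum is A1cf KO 780, and the next animal had 718 CPM. The log2 fold change was 0.27 (SE 0.14, adjusted p 0.518) and 0.11 without A1cf KO 780. Sult1c2 had 75.4 ± 13.7 CPM in WT and 71.4 ± 10.9 in A1cf KO, and Sult1b1, an enzyme for thyroid hormones, had 4.63 ± 0.85 and 5.13 ± 0.80 (SD, n = 6). Sult1e1, the oestrogen sulfotransferase, had 185 reads in all, from 0 to 1.29 CPM a library, and its log2 fold change of 0.99 had an interval of -0.44 to 2.43.

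Sult1a1, the phenol sulfotransferase, followed the animal numbers and not the genotype. Animals 573 to 602 had 20.2 to 25.6 CPM in WT and 19.5 to 28.7 in A1cf KO. Animals 776 to 780 had 40.7 to 44.3 CPM in WT and 46.4 in the single A1cf KO. The series did not overlap, while within animals 573 to 602 the genotypes did. The pooled log2 fold change of -0.27 (SE 0.24) came to 0.07 with the series as a covariate and to 0.06 within animals 573 to 602. Gstm7 was the only other transferase whose series did not overlap, at 7.51 to 11.7 CPM in animals 573 to 602 and 5.67 to 7.31 in animals 776 to 780. These 2 are 5.56% of the 36 tested, beside 2.96% of all genes tested. The pattern was looked for after values of the series had been seen, and it was given no test.

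**Figure D5:**
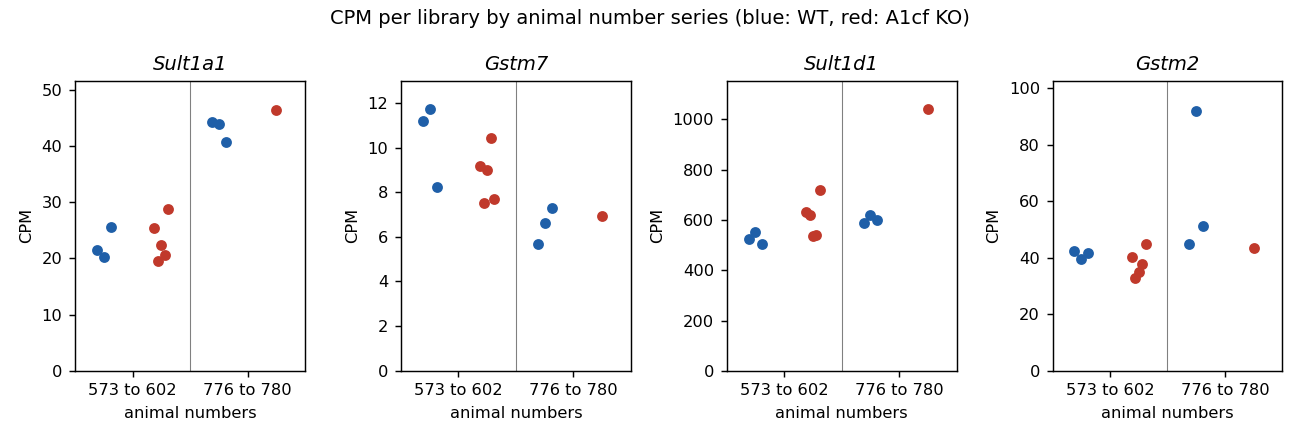
CPM in each library of Sult1a1, Gstm7, Sult1d1 and Gstm2, with animals 573 to 602 left and 776 to 780 right of the line in each panel (blue WT, red A1cf KO; axes start at 0). Sult1a1 is higher and Gstm7 lower in all 4 animals of the second series, while Sult1d1 and Gstm2 each have 1 library far above the rest, A1cf KO 780 and WT 777.

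The 10 genes that were not tested had 0 to 65 reads over the 12 libraries. Ugt1a5, Ugt1a8, Ugt1a9, Ugt2b35, Ugt2b36 and Gstt4 each had between 14 and 65, and Ugt2b1 had 8, all in A1cf KO libraries. Sult1c1 had 0 reads over 1556 bases. Ugt2a1 and Ugt2a2 also had 0, but with 30 and 140 own bases their counts say little, since these genes share nearly all of their exons.

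The genes that feed and follow conjugation were given the same test. None of the 93 tested genes of 10 such lists passed an adjusted p of 0.05 in edgeR. Over all genes tested, 10.4% had an unadjusted p under 0.05. Of 5 genes of UDP-glucuronate supply none had an unadjusted p under 0.05, and the highest, Ugp2, which makes UDP-glucose, had 154 ± 9.01 CPM in WT and 161 ± 9.04 in A1cf KO (SD, n = 6). Of 8 genes of glutathione supply 1 had, Ggct, which cleaves gamma-glutamyl peptides (log2 fold change 0.26, adjusted p 0.439), while the highest, Oplah, had 395 ± 21.6 and 395 ± 25.4 CPM. Of 7 genes of PAPS supply 2 had a higher and 1 a lower mean in A1cf KO at that level. Papss2, a PAPS synthase, had 441 ± 85.7 CPM in WT and 530.1 ± 77.8 in A1cf KO (adjusted p 0.479). Bpnt1, a nucleotidase that clears the spent donor, had 192 ± 18.2 and 228 ± 20.4 (adjusted p 0.297), and the Golgi PAPS carrier Slc35b2 had 46.7 ± 3.38 and 42.0 ± 2.79 (adjusted p 0.414).

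Export and further processing gave few differences as well. Of 9 efflux pumps, Abcc2, the apical pump for glucuronide and glutathione conjugates, had 617 ± 90.3 CPM in WT and 775 ± 166 in the knockouts (0.33 on the log2 scale, adjusted p 0.424), and Abcc1 had 30.4 ± 3.91 and 26.2 ± 2.57 (-0.21, adjusted p 0.437). The other 7 had an unadjusted p above 0.05. The 9 genes that turn glutathione conjugates into mercapturates had none under it, with Acy3 and Ggt1 the highest at 1593 ± 345 and 1362 ± 190 CPM in WT. Among the deconjugating enzymes, Gusb, beta-glucuronidase, had 38.0 ± 3.36 CPM in WT and 43.7 ± 5.58 in A1cf KO (adjusted p 0.436). The NRF2 response list, genes outside these families that NRF2 switches on under oxidative stress, had 12 tested genes, none with an unadjusted p under 0.05 and a median log2 fold change of -0.06; the highest, Me1, had 529 ± 54.6 CPM in WT and 587 ± 57.2 in A1cf KO.

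Other glutathione transferase relatives, led by Gstz1, included 2 genes of 12 tested whose genotypes did not overlap, beside 0.84% of all genes tested. Clic4, an intracellular chloride channel protein with a glutathione transferase fold, had 139 ± 12.2 CPM in WT and 168 ± 6.32 in the knockouts (0.28 on the log2 scale, SE 0.06, adjusted p 0.147). Hpgds, the prostaglandin D synthase of haematopoietic cells, had 0.94 ± 0.18 and 1.52 ± 0.25 CPM (0.68, adjusted p 0.222). DESeq2 called 2 of the 12 tested genes of this list, beside 1.11% of the genes it tested. Beside Hpgds, 8 of 9 tested macrophage and monocyte markers had positive fold changes (median 0.28, 2 called by DESeq2), with sums of 120.6 to 171.6 CPM in WT and 139.5 to 181.1 in A1cf KO, and their part in it was not tested. Ptges, a prostaglandin E synthase, had -0.19 (adjusted p 0.391). Tpst1, a protein tyrosine sulfotransferase, had 3.22 ± 0.52 CPM in WT and 4.27 ± 0.77 in A1cf KO (0.40, adjusted p 0.381). Among the regulators, Bach1 had a higher and Nfe2l1 a lower mean in A1cf KO at an unadjusted p under 0.05, with log2 fold changes of 0.20 and -0.17 and adjusted p of 0.439 and 0.409. Hnf4a, the highest regulator, had 859 ± 116 and 894 ± 51.9 CPM.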

How the data were processed

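RNA of 12 kidneys was made into TruSeq libraries, per the labels' protocols. The submitters' processing notes name STAR, DESeq2 and mm10. The authors' deposited values are raw counts per gene name, made with featureCounts 1.5.0-p2 per the file headers, with exon coordinates and lengths. The command recorded there names the GENCODE M8 annotation and keeps the tool's defaults, by which a read over exons of more than 1 gene name is not counted and strand is not used.

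Here genes were kept by filterByExpr and scaled by TMM, and genotypes were compared over all 16910 genes with edgeR 4.0.16 in R 4.3.3 (quasi-likelihood test, Benjamini-Hochberg, threshold 0.05), tested first on simulated data. DESeq2 1.42.0 and limma 3.58.1 were alternatives. CPM use TMM library sizes; RPKM divide by the exon bases of no other gene. Sequences came from GENCODE M21 transcripts and RefSeq promoters. Named genes are the up to 4 highest tested per family and those with an unadjusted p under 0.05 or groups that do not overlap; of the pathway lists, those with an unadjusted p under 0.05 and the highest, of which some are not reported here. The genes, lists and tests were chosen with earlier results of these data known. With 6 animals a group, 26671705 to 52899139 reads a library limit the precision of genes at a few reads.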

Additional observations from a re-analysis of the deposited data

Results flagged for a closer look

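In each genotype, the highest and the lowest animal of every named gene were set against the rest of the group by Dixon's rule for 6 values. Of 60 groups looked at, 6 (10%) had an animal that stood apart. The rule flags about 1 in 20 only for independent values from a normal distribution. These genes were measured in the same 12 libraries, so the share of 10% cannot be set against that rate. Gstm2 was 91.902 CPM in WT 777, and the nearest WT animal had 51.321. Gsto1 was 59.629 CPM in WT 776, with the nearest at 39.059. Ugt2b5 was 6.479 CPM in WT 573, with the nearest at 3.7541. Ugt1a6a was 4.1958 CPM in WT 778, with the nearest at 3.6848, in a group that otherwise lay close together. In A1cf KO 780, Sult1d1 was 1040.4 CPM, with the nearest at 718.47, and Sult1a1 was 46.415 CPM, with the nearest at 28.742. The last is the only A1cf KO animal of the series 776 to 780, in which the WT animals had 40.7 to 44.3 CPM of Sult1a1. All 6 were high, and no cause was tested.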

How the results depend on the processing

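Each result was recomputed under 21 other settings: 2 scalings, 2 filters, 3 other tests or fits, the animal number series as covariate, animals 573 to 602 alone, and each library left out. The count of transferases past the threshold was 0 in 19 of them and 1, Ugt2b34, with DESeq2 and with the covariate; over all genes the count of 8 became 170 with DESeq2 and 24 with the covariate, and was 6 to 12 as libraries were left out. The adjusted p of Ugt2b34 ranged from 0.00342 to 0.259. The signs that turned belong to log2 fold changes whose intervals include 0. With limma-voom Ugt1a6b was 0.00925. With the covariate Gstm1 was 0.00806, Sult1a1 0.0746, Ugt1a7c -0.0182 and Ugt1a6b 0.028. Within animals 573 to 602 Gstm1 was 0.0546, Gsto1 0.047, Gsto2 0.0328, Sult1a1 0.0576, Sult1b1 -0.00549, Ugt1a7c -0.0904, Ugt1a6b 0.0684 and Ugt3a2 -0.0615. As libraries were left out, ranges were -0.228 to 0.268 for Gsta1, -0.0449 to 0.0311 for Gstm1, -0.101 to 0.02 for Gstm4, -0.0719 to 0.0497 for Gstm5, -0.269 to 0.0364 for Gsto1, -0.241 to 0.0139 for Gstp2, -0.115 to 0.0449 for Gstt1 and -0.13 to 0.0618 for Ugt1a6b. The causes were not tested. The stricter filter gave no value for Gsta1, Gsto2 and Ugt2a3. No paired analysis was possible because the genotypes share no animal number.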
